A study of Mus musculus with 12 samples.

Results

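Transcripts of 10 chemokine genes were followed in cultured neonatal mouse cardiomyocytes, 6 of the CC class (Ccl2, Ccl7, Ccl11, Ccl5, Ccl9 and Ccl6) and 4 of the CXC class (Cxcl5, Cxcl1, Cxcl2 and Cxcl12). They are 10 of 55416 genes in the table, picked by name with their response to phenylephrine in control cells known, and all 10 are among the 21799 tested genes, whose mean value was 1 or more. The cells received a GapmeR (a chimeric antisense DNA oligonucleotide through which RNase H cuts the bound transcript) and either phenylephrine (PE), an alpha-adrenergic agonist that enlarges cardiomyocytes, or PBS. The 4 groups of 3 libraries were PE with the lincRNA-p21 GapmeR, PE with a negative-control GapmeR, PBS with the lincRNA-p21 GapmeR and PBS with the negative-control GapmeR. PE was given for 24 hours, and the labels state no time for PBS. Below, knockdown means the lincRNA-p21 GapmeR and control the negative-control GapmeR, so control cells also carry an oligonucleotide. The labels give no genotype beyond the GapmeR and no strain, and they describe a single oligonucleotide name per arm. They also state no separate cultures or animals, so the p-values speak only of the spread among the 12 libraries.

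Chemokines are small secreted proteins that guide leukocytes along a gradient through G protein-coupled receptors, and the arrangement of their conserved cysteines separates the CC from the CXC class. Their genes lie mostly in clusters and many are switched on by inflammatory cytokines through NF-kB. In the heart they are known for drawing monocytes and neutrophils into injured or overloaded muscle, and cardiomyocytes, fibroblasts, endothelial cells and macrophages can all make them.

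Of the 10 genes, 9 lie in 3 clusters of the GRCm38 genome. Ccl2, Ccl7 and Ccl11 lie at the start of a cluster of 6 chemokine genes within 270120 bases of chromosome 11. Ccl5, Ccl9 and Ccl6 lie in a second cluster on chromosome 11, with 5 genes within 138906 bases. Cxcl5, Cxcl1 and Cxcl2 lie in a cluster of 7 genes within 146579 bases of chromosome 5. Cxcl12 lies by itself on chromosome 6.

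Promoter windows, from 250 bases before to 50 bases after the gene start, were found for 5 of the 10 genes in the RefSeq table of build GRCm38.p6, namely Cxcl1, Cxcl2, Cxcl12, Ccl9 and Ccl6. Both neighbours Cxcl1 and Cxcl2 are shown because each holds the longer of the NF-kB motifs searched, in capitals, and Ccl9 and Ccl6 because they had the highest log2 differences with PE among the 10 and share a run of 13 bases, in capitals.
Cxcl1 (chr5:90890995-90891294, plus strand): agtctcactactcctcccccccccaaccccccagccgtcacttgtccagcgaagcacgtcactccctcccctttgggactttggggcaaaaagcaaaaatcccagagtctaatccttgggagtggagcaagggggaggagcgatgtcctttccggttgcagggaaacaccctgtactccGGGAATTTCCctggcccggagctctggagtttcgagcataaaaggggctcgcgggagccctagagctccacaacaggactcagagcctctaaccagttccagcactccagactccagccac
Cxcl2 (chr5:90903649-90903948, plus strand): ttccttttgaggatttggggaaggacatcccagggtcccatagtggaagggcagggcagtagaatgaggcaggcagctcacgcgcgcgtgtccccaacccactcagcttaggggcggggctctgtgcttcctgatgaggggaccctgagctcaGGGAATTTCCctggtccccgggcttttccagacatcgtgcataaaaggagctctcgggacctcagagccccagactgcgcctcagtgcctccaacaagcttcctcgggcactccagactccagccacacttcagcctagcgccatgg
Ccl9 (chr11:83578587-83578886, minus strand): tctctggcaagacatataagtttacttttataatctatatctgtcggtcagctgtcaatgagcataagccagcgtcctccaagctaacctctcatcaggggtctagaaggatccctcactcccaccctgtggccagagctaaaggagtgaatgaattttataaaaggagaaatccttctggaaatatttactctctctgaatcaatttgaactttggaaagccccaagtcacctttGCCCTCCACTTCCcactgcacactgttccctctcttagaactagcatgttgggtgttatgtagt
Ccl6 (chr11:83593038-83593337, minus strand): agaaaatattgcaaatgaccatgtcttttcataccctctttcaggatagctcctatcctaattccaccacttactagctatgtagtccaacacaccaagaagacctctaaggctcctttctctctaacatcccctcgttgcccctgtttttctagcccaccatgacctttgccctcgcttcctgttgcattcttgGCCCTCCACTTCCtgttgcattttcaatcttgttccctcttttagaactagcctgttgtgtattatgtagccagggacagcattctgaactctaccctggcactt

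This longer NF-kB motif starts 71 bases before the Cxcl1 start and 97 bases before the Cxcl2 start. On either strand it occurs in 0.411% of the 32851 promoters in the table. The shorter NF-kB motif GGAATTTCC, found in 0.317% of promoters, lies within the same match in both genes. Cxcl1 and Cxcl2 also share a run of 20 bases after the start. The AP-1 motif TGANTCA, found in 7.81% of promoters, occurs in Ccl9, where its match reads the same site on both strands, 53 bases before the start. The C/EBP motif TTGCNNAAT (2.40% of promoters) and the interferon-stimulated response element (3.44%) had no match in these 5 windows. A match is a run of letters and was not tested as a binding site.

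Libraries held 21325485 to 22139681 reads in genes, and the deposited values are these reads divided by 1 size factor per library. The knockdown target lincRNA-p21 (Trp53cor1) averaged 9.16 ± 0.728 normalised read counts in PE knockdown cells and 41.6 ± 12.5 in PE control cells (SD, n = 3 each). In PBS it averaged 15.1 ± 6.60 in knockdown cells and 64.5 ± 5.50 in control cells (SD, n = 3 each). AC167363.1 lies over lincRNA-p21 on the opposite strand, and since the use of strand in counting is not given, reads of this pair may not have been told apart. Cardiomyocyte markers summed to 1001013 to 1094689 in PE knockdown, 1263934 to 1534767 in PE control, 636682 to 684506 in PBS knockdown and 776238 to 879386 in PBS control libraries, so the labelled cell type is present in all 12. Markers of fibroblasts, endothelial cells and macrophages were present as well. An earlier analysis of these data placed PE knockdown replicate 1, PBS knockdown replicate 2 and PBS control replicate 2 far from their groups. Their mitochondrial share of reads was 10.04%, 4.33% and 10.7%, and printed knockdown and interaction differences that pass or move by over 1.5 times without them are given both ways here or in the closing section.

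Among the chemokines, Ccl2 dominated at every condition on the scale of normalised reads per kilobase of exon. Its level averaged 7976 ± 208 in PE knockdown, 7968 ± 593 in PE control, 3769 ± 261 in PBS knockdown and 4467 ± 550 in PBS control cells (SD, n = 3 each). That is 49.3%, 46.9%, 53.4% and 53.9% of the summed level per kilobase of the 38 chemokine genes listed. Ccl7, Cxcl5 and Cxcl1 followed in that order in all 4 groups, and the 10 genes together made up 86.5% to 88.0% of the family sum. Levels per kilobase of Cxcl5 and Cxcl1 overlapped between libraries in 3 of the 4 groups, all but PBS knockdown. Among the 10 genes Cxcl12 came next, at 303 ± 15.9 in PE knockdown, 269 ± 12.1 in PE control, 184 ± 14.8 in PBS knockdown and 175 ± 14.04 in PBS control cells per kilobase (SD, n = 3 each). Of the other ligands, Ccl3 lay above it in every group, Cx3cl1 in PE control, and Cxcl16 in PBS knockdown and PBS control cells. Ccl11 was the lowest of the 10 in every group, though not of the family, between 0.917 and 2.99 per kilobase on average.

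In knockdown cells PE raised 9 of the 10 chemokines and lowered none of them. The range was wide, with Ccl6 at a log2 difference of 5.87 and Cxcl12 at 0.72, and the median of the 10 genes was 1.34 against 0.0048 over all genes tested. Across all genes, 13.4% were called higher and 14% lower in this comparison (limma, Benjamini-Hochberg adjusted p under 0.05). For 9 of the 10 genes every PE library lay above every PBS library, which held for 19.6% of all genes. These are bulk libraries, in which more cells of a type and more RNA per cell cannot be told apart. In control cells the same 9 genes had every PE library above every PBS library, which held for 21% of all genes. That contrast was known when the genes were picked and is given only as a description. Knockdown cells received the same PE treatment, so their count and median are not independent of that choice either.

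**Figure D1:**
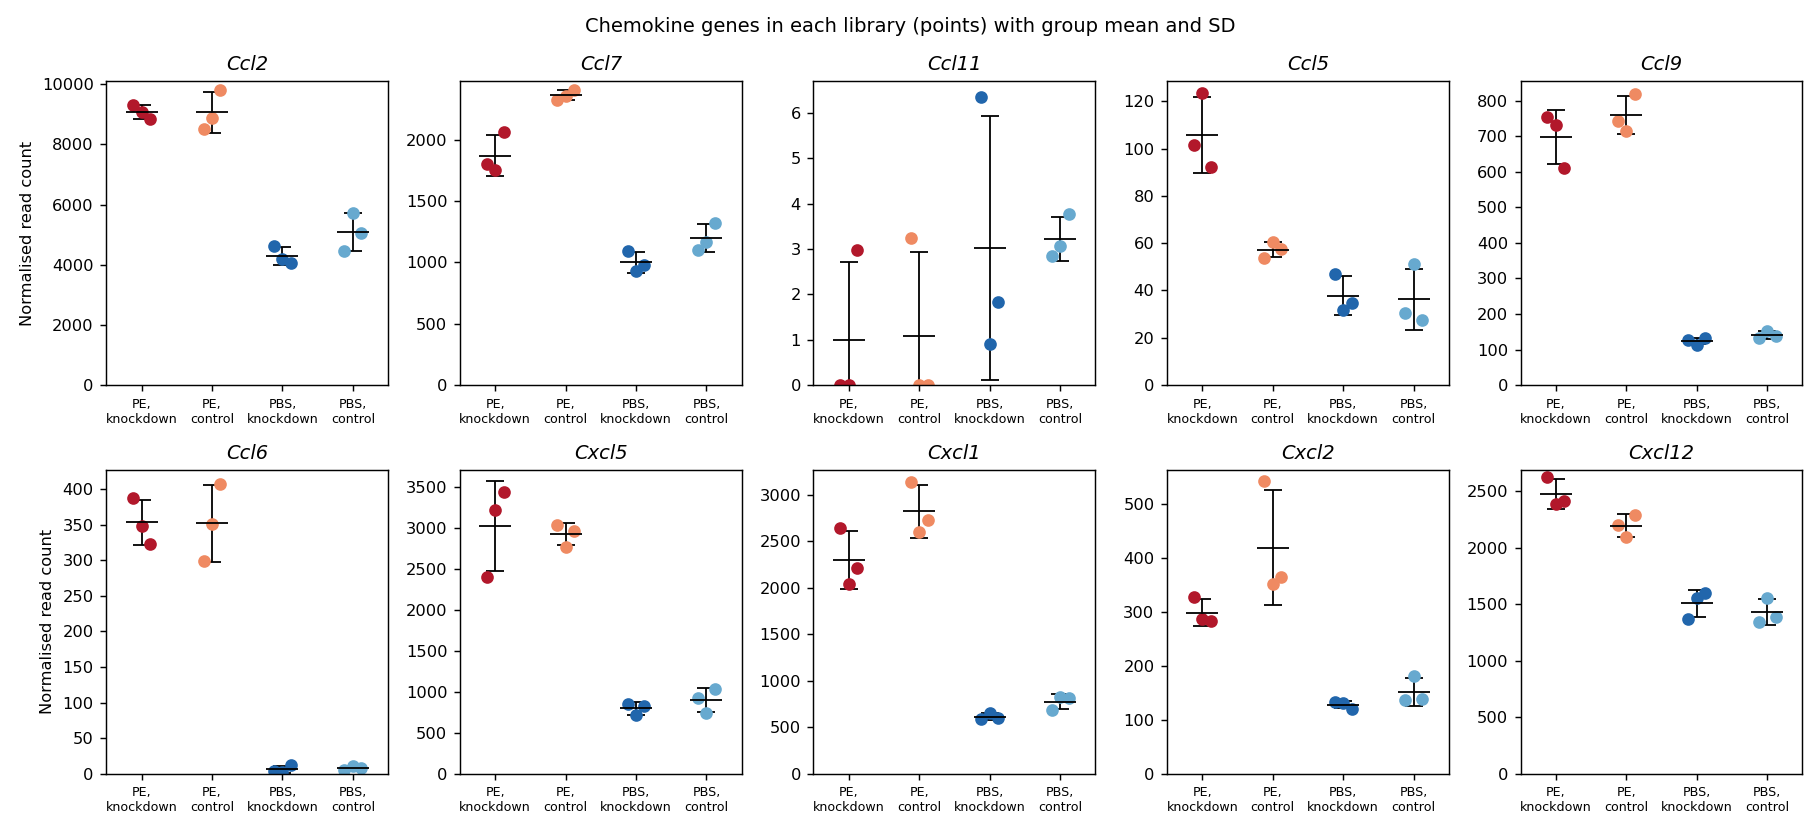
Normalised read counts (y axis, linear from 0) of the 10 chemokine genes in each of the 12 libraries (points), with the group mean and SD as bars. Ccl11 stays under 6.35 in every library, while the other 9 genes are higher in all PE than in all PBS libraries with either GapmeR.

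The chromosome 11 cluster of monocyte chemoattractants held the highest levels and a moderate response. Ccl2 (ENSMUSG00000035385.6, GRCm38 chromosome 11, 82035571 to 82037453, plus strand), the main ligand of CCR2 on monocytes, had 9312, 9083 and 8837 normalised read counts in PE knockdown, 8501, 8888 and 9814 in PE control, 4623, 4192 and 4054 in PBS knockdown, and 4466, 5718 and 5066 in PBS control libraries. PE libraries were all above PBS libraries, and the values of the GapmeRs overlapped within each treatment. With PE the log2 difference was 1.08 ± 0.10 in knockdown cells (limma standard error, adjusted p = 2.2e-07) and 0.84 ± 0.10 in control cells (description). Ccl7 (ENSMUSG00000035373.3, chromosome 11, 82045712 to 82047525, plus strand), which also draws monocytes through CCR2, had 1800, 1750 and 2062 in PE knockdown, 2328, 2357 and 2404 in PE control, 1096, 929 and 981 in PBS knockdown, and 1101, 1165 and 1322 in PBS control libraries. Its knockdown libraries lay below the control libraries both in PE and in PBS, although in PBS the gap was small. With PE the log2 difference of Ccl7 was 0.90 ± 0.10 in knockdown cells (limma, adjusted p = 1.5e-06) and 0.99 ± 0.10 in control cells (description).

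Ccl11 (ENSMUSG00000020676.3, chromosome 11, 82057823 to 82062955, plus strand), the eosinophil attractant eotaxin, was barely detected. It had 0, 0 and 2.98 normalised read counts in PE knockdown, 3.23, 0 and 0 in PE control, 6.35, 0.904 and 1.83 in PBS knockdown, and 2.85, 3.07 and 3.78 in PBS control libraries. These are 0 to 7 reads per library, so no fold is given. The groups overlapped in knockdown cells, and the difference did not pass the test (limma, adjusted p = 0.28). A difference was not detectable at this depth.

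The second chromosome 11 cluster held Ccl6 and Ccl9, which had the largest log2 differences with PE among the 10 genes. Ccl6 (ENSMUSG00000018927.4, chromosome 11, 83587882 to 83593087, minus strand), a mouse chemokine that acts through CCR1, had 387, 349 and 324 normalised read counts in PE knockdown, 298, 351 and 407 in PE control, 3.63, 2.71 and 11.9 in PBS knockdown, and 5.69, 11.2 and 7.55 in PBS control libraries. It was close to absent without PE, at 3 to 13 reads per PBS library, so the size of its fold is known only roughly. With PE its log2 difference was 5.87 ± 0.34 in knockdown cells (limma, adjusted p = 2.6e-10), a 58.1-fold ratio of means, and 5.30 ± 0.34 in control cells (description). Ccl9 (ENSMUSG00000019122.9, chromosome 11, 83572919 to 83578636, minus strand), the neighbouring mouse chemokine and also a CCR1 ligand, had 754, 732 and 611 in PE knockdown, 743, 716 and 821 in PE control, 128, 114 and 131 in PBS knockdown, and 134, 153 and 137 in PBS control libraries. Its PE and PBS libraries were far apart, with a log2 difference of 2.48 ± 0.12 in knockdown cells (limma, adjusted p = 2.7e-11) and 2.42 ± 0.12 in control cells (description).

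Ccl5 (ENSMUSG00000035042.3, chromosome 11, 83525778 to 83530518, minus strand), also called RANTES, which draws T cells and monocytes, was low but stood out by GapmeR. It had 102, 124 and 92.3 normalised read counts in PE knockdown, 53.9, 60.6 and 57.5 in PE control, 47.1, 31.6 and 34.8 in PBS knockdown, and 30.4, 51.1 and 27.4 in PBS control libraries. The 3 PE knockdown libraries were the highest of all 12, and the PBS groups overlapped. With PE its log2 difference was 1.47 ± 0.24 in knockdown cells (limma, adjusted p = 9.4e-05) and 0.70 ± 0.24 in control cells (description).

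In the chromosome 5 cluster, Cxcl5, Cxcl1 and Cxcl2 encode attractants of neutrophils that act through CXCR2. Cxcl5 (ENSMUSG00000029371.8, chromosome 5, 90759360 to 90761624, plus strand) had 2398, 3220 and 3432 normalised read counts in PE knockdown, 3036, 2769 and 2957 in PE control, 852, 711 and 822 in PBS knockdown, and 918, 745 and 1034 in PBS control libraries. Its PE values were all above its PBS values, and PE knockdown replicate 1 was the lowest PE library. With PE the log2 difference of Cxcl5 was 1.91 ± 0.13 in knockdown cells (limma, adjusted p = 3.5e-09) and 1.71 ± 0.13 in control cells (description).

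Cxcl1 (ENSMUSG00000029380.12, chromosome 5, 90891241 to 90893115, plus strand), whose promoter with the NF-kB motif is printed above, had 2645, 2037 and 2218 normalised read counts in PE knockdown, 3141, 2597 and 2725 in PE control, 586, 655 and 598 in PBS knockdown, and 684, 826 and 812 in PBS control libraries. Knockdown libraries were all below control libraries in PBS, and they overlapped in PE. With PE its log2 difference was 1.90 ± 0.11 in knockdown cells (limma, adjusted p = 4.3e-10) and 1.86 ± 0.11 in control cells (description). Cxcl2 (ENSMUSG00000058427.11, chromosome 5, 90903871 to 90905938, plus strand), whose promoter holds the same motif, had 326, 287 and 282 in PE knockdown, 542, 351 and 364 in PE control, 132, 131 and 120 in PBS knockdown, and 136, 181 and 138 in PBS control libraries. Its knockdown libraries lay below the control libraries in both treatments, and PE control replicate 1 was the highest library. With PE the log2 difference of Cxcl2 was 1.22 ± 0.16 in knockdown cells (limma, adjusted p = 1.2e-05) and 1.44 ± 0.16 in control cells (description). Cxcl2 shares 5.84% of its windows of 50 exonic bases with another gene, Cxcl3, so a small part of its reads could belong to that gene.

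Cxcl12 (ENSMUSG00000061353.12, chromosome 6, 117168535 to 117181367, plus strand), the CXCR4 ligand that retains and guides stem cells and lymphocytes, had the smallest response among the 9. It had 2626, 2388 and 2414 normalised read counts in PE knockdown, 2204, 2093 and 2291 in PE control, 1371, 1555 and 1599 in PBS knockdown, and 1341, 1559 and 1389 in PBS control libraries. PE libraries were all above PBS libraries, and in PE the knockdown libraries were all above the control libraries. With PE its log2 difference was 0.72 ± 0.10 in knockdown cells (limma, adjusted p = 1.2e-05) and 0.62 ± 0.10 in control cells (description).

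**Figure D2:**
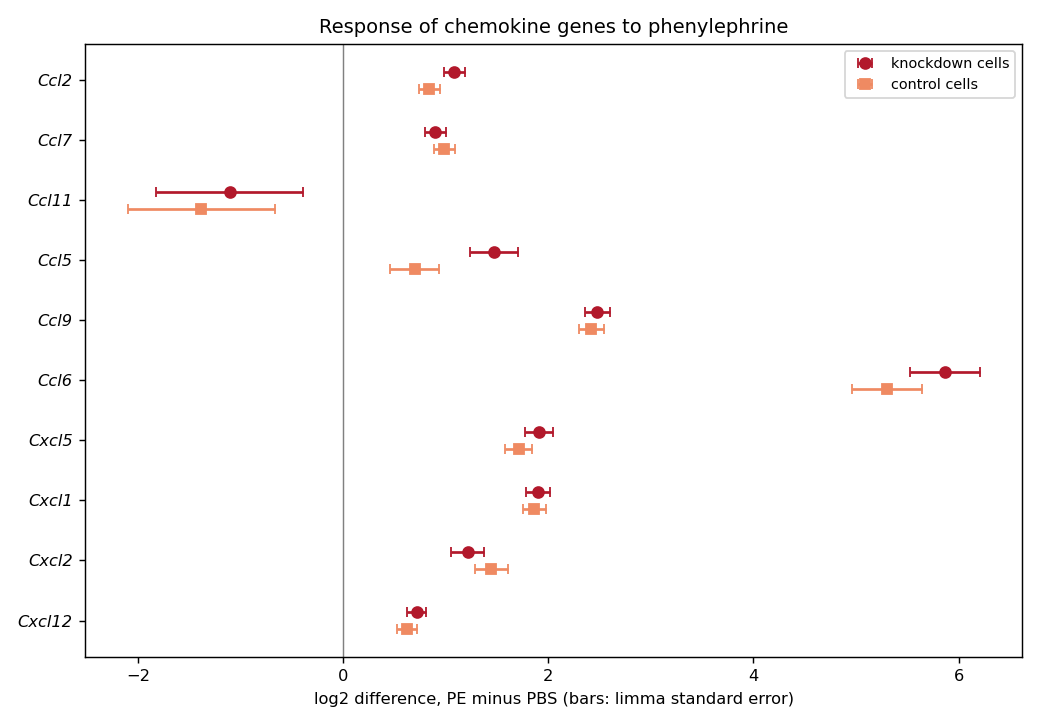
The log2 difference of PE minus PBS (x axis) for each chemokine gene, in knockdown cells (circles) and in control cells (squares, description only), with bars for the limma standard error. In knockdown cells 9 genes lie between 0.72 and 5.87, and Ccl11, which had 0 to 7 reads per library, lies below 0 with the widest bar.

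Neighbours in the clusters were also measured. Of 28 other chemokine ligands listed, 17 were tested, and with PE in knockdown cells 9 rose and 0 fell, with a median log2 difference of 0.95. Cxcl10, an interferon-inducible ligand of CXCR3, had the highest log2 difference among those with a firm level, 2.95 ± 0.16 (limma, adjusted p = 8.3e-11), at a mean of 551 in PE knockdown cells and 69.7 in PBS knockdown cells. Its gene overlaps Art3, which has the higher mean count. Of the Cxcl10 windows of 50 exonic bases, 3.59% also occur in Art3, so reads of that part may not have been told apart. Pf4, the platelet factor in the chromosome 5 cluster, differed by 1.86 ± 0.17 (limma, adjusted p = 1.4e-07), and Cxcl3, another CXCR2 ligand there, by 1.76 ± 0.15 (limma, adjusted p = 4.2e-08). Ppbp, between Cxcl5 and Pf4, had 14.99, 19.9 and 20.8 normalised read counts in PE knockdown libraries, against 1.81, 0 and 0 in PBS knockdown libraries. Ccl12, beside Ccl11, had 2.14, 2.99 and 9.93 in PE knockdown libraries and 0 in all 3 PBS knockdown libraries. Ccl3 and Ccl4, both inflammatory chemokines beside Ccl6, differed by 0.95 ± 0.14 and 1.49 ± 0.19 (limma, adjusted p = 2.9e-05 and 8.7e-06).

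Receptors for these ligands were scarce. Of 23 receptors listed, 15 were tested, and with PE in knockdown cells 5 rose and 0 fell. Ccr1, the receptor of Ccl6 and Ccl9, averaged 68.3 in PE knockdown cells and 28.8 in PBS knockdown cells, a log2 difference of 1.21 ± 0.25 (limma, adjusted p = 0.0011). Ackr3, which takes up Cxcl12, averaged 168 in PE knockdown cells and 104 in PBS knockdown cells, a log2 difference of 0.68 ± 0.17 (limma, adjusted p = 0.0052). The Ccl2 receptor gene Ccr2 and the receptor gene Cxcr2 of the neutrophil attractants had a mean below 1 and were not tested, and Cxcr4 did not pass the test (limma, adjusted p = 0.99). Cx3cr1 and Ackr1, also called, averaged 11.9 and 9.15 in PE knockdown cells, against 0.910 and 0.910 in PBS knockdown cells. In control cells they averaged 7.18 and 8.97 with PE, against 4.64 and 9.42 in PBS. The call of Ackr1 thus rests on its low PBS knockdown value. With PE in control cells 1 receptor was called higher and 1 lower, with a median log2 difference of 0.00078. For the knockdown in PBS 0 were called higher and 1 lower.

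Cytokines known to induce chemokines were measured beside them. Of 19 genes of inducing cytokines and their receptors, 9 rose and 1 fell with PE in knockdown cells. Il6 averaged 62.6 in PE knockdown cells and 3.93 in PBS knockdown cells, a log2 difference of 4.07 ± 0.43 (limma, adjusted p = 7.8e-07). Il1b differed by 3.44 ± 0.43 and Il1a by 2.12 ± 0.17 (limma, adjusted p = 5.2e-06 and 2.5e-08). Of 15 genes of NF-kB subunits and inhibitors, 6 rose and 0 fell, among them Bcl3, a nuclear cofactor of NF-kB, at 1.20 ± 0.20 and the NF-kB subunit gene Nfkb2 at 0.90 ± 0.11 (limma, adjusted p = 1.3e-04 and 5.6e-06). Of 9 tested proteases known to cleave chemokines, 5 rose and 2 fell. Mmp13 differed by 3.89 ± 0.28, and Dpp4, which trims several chemokines, by -1.06 ± 0.16 (limma, adjusted p = 5.3e-09 and 5.1e-05). Of 9 genes of mRNA decay and stability factors, 1 rose and 0 fell (Hnrnpd, 0.47 ± 0.12, limma, adjusted p = 0.0046).

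Markers of other cell types moved with PE as well. Of 14 macrophage markers 9 rose and 0 fell in knockdown cells, and their sum was 3766 to 4419 in PE knockdown, 4257 to 4873 in PE control, 2861 to 3041 in PBS knockdown and 3045 to 3676 in PBS control libraries. Of 10 endothelial markers 8 rose and 1 fell, with sums of 5131 to 6011 in PE knockdown, 6042 to 6573 in PE control, 2306 to 2322 in PBS knockdown and 2286 to 2546 in PBS control libraries. Fibroblast markers went the other way, with 0 of 10 higher and 9 lower, and sums of 29201 to 33314 in PE knockdown, 35868 to 38862 in PE control, 45024 to 54843 in PBS knockdown and 50621 to 54874 in PBS control libraries. Smooth muscle and pericyte markers summed to 35385 to 38505 in PE knockdown, 48072 to 50960 in PE control, 20115 to 22305 in PBS knockdown and 24864 to 28630 in PBS control libraries, while 2 of the 7 rose (Cnn1 and Acta2) and 4 fell in knockdown cells. Epicardial markers, with 1 of 5 higher and 3 lower, summed to 3675 to 3811 in PE knockdown, 4130 to 4308 in PE control, 4855 to 5014 in PBS knockdown and 4352 to 4830 in PBS control libraries. The part of these cells in the chemokine values was not tested. Neutrophil markers, 5 of 8 with a mean below 1 and Retnlg at 0 in every library, summed to 10.96 to 17.9 in PE knockdown, 13.03 to 19.4 in PE control, 17.4 to 46.2 in PBS knockdown and 27.6 to 37.8 in PBS control libraries. Lymphocyte markers, 7 of 8 with a mean below 1 and 3 at 0 in every library, summed to at most 10.8 in any library.

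**Figure D3:**
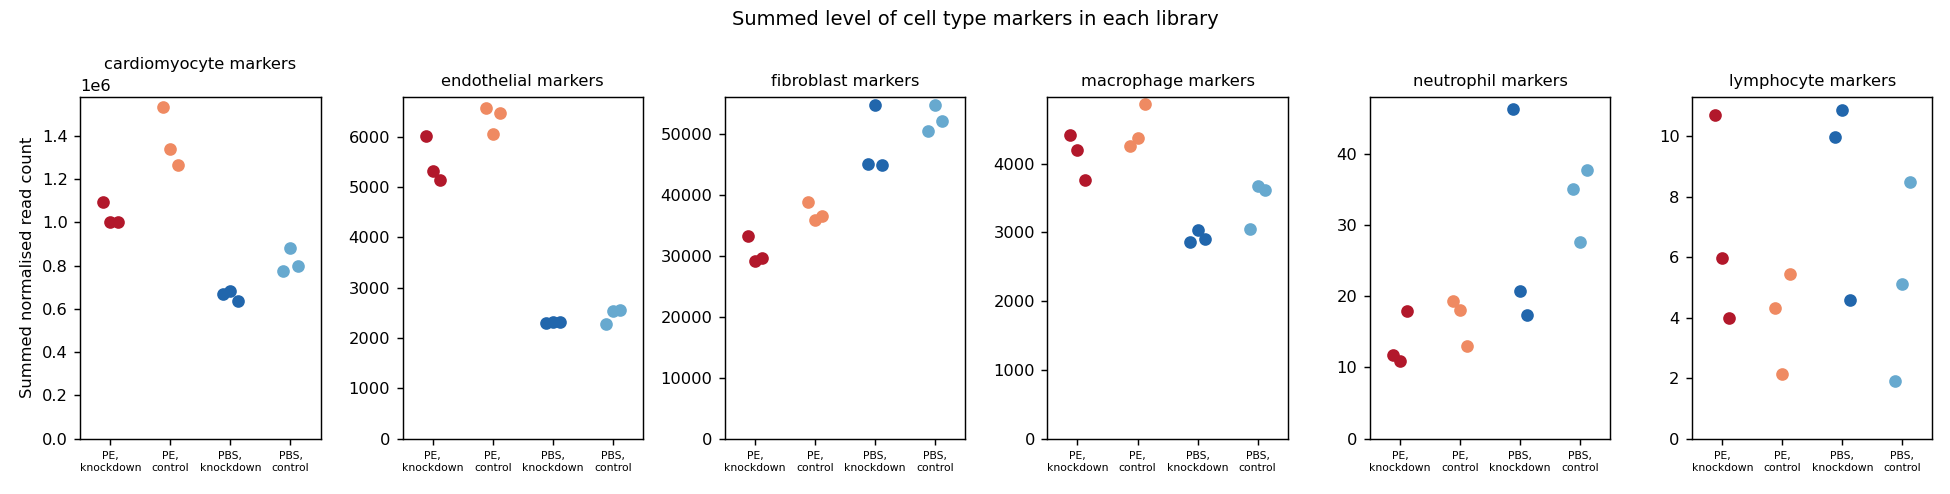
Summed normalised read counts of marker lists (y axis, linear from 0) in each of the 12 libraries (points). The lists shown are cardiomyocyte, endothelial, fibroblast, macrophage, neutrophil and lymphocyte markers. Endothelial and macrophage sums are higher in all PE than in all PBS libraries, fibroblast sums are lower, and neutrophil and lymphocyte sums stay under 46.3 and 10.9.

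For the knockdown in PE cells 2 of the 10 chemokines were called, in opposite directions. Ccl5 was called higher and Ccl7 lower, against 4.57% of all genes called higher and 7.14% called lower (11.7% in either direction). With 10 genes, counts this small cannot be told apart from those shares. For Ccl5 the mean was 106 ± 16.1 in PE knockdown cells and 57.3 ± 3.36 in PE control cells (SD, n = 3 each), a 1.85-fold ratio and a log2 difference of 0.86 ± 0.24 (limma, adjusted p = 0.0205). This call was lost without PE control replicate 1, 2 or 3 or without PE knockdown replicate 2, at log2 differences of 0.75 to 0.90 (limma, adjusted p = 0.051 to 0.11). For Ccl7 the mean was 1871 ± 167 in PE knockdown cells and 2363 ± 38.6 in PE control cells (SD, n = 3 each), a log2 difference of -0.34 ± 0.10 (limma, adjusted p = 0.033). Its call was lost without PE control replicate 1, 2 or 3 or PE knockdown replicate 1 or 2, at -0.35 to -0.29 (limma, adjusted p = 0.079 to 0.15), and with rescaled library totals, at -0.26 (limma, adjusted p = 0.14). Over the 23 settings run, the reported one included, its adjusted p ran 0.0098 to 0.15, and that of Ccl5 0.0035 to 0.11.

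Every knockdown library was above every control library in PE for 2 of the 10 genes, Ccl5 and Cxcl12, and below for 2, Ccl7 and Cxcl2, against 14.4% and 16.1% of all genes. Cxcl2 averaged 298 ± 24.4 in PE knockdown cells and 419 ± 107 in PE control cells (SD, n = 3 each), a log2 difference of -0.46 ± 0.16 that did not pass (limma, adjusted p = 0.074). It passed with edgeR on the deposited factors (-0.49, adjusted p = 0.045), with DESeq2 (-0.49, adjusted p = 0.031) and without the 3 far libraries (-0.53, limma, adjusted p = 0.0090), and over the 23 settings its adjusted p ran 0.0090 to 0.40. Cxcl1 averaged 2300 ± 312 in PE knockdown cells and 2821 ± 285 in PE control cells (SD, n = 3 each), a log2 difference of -0.30 ± 0.11 (limma, adjusted p = 0.105). Without the 3 far libraries Cxcl1 also passed, at -0.40 (limma, adjusted p = 0.0014), and its adjusted p ran 0.0014 to 0.38 over the 23 settings. For Cxcl12 the log2 difference was 0.17 ± 0.10 (limma, adjusted p = 0.30). The other 5 genes did not pass either, with Ccl9 at -0.13 ± 0.12, Cxcl5 at 0.03 ± 0.13 (0.19 without the 3 far libraries), Ccl6 at 0.01 ± 0.34 and Ccl2 at 0.0038 ± 0.10, while Ccl11 had too few reads for a fold.

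Knockdown in PBS cells gave no called chemokine, 0 of 10 by limma and also by edgeR and DESeq2. Of all 21799 genes limma called 4.57% in either direction, 1.36% higher and 3.21% lower. On the same genes edgeR with the deposited factors called 320 higher and 758 lower, and DESeq2 545 higher and 910 lower. At an unadjusted p under 0.05 in limma there were 3 of the 10 chemokines, all lower: Cxcl1, Ccl7 and Ccl2. Cxcl1 averaged 613 ± 37.2 in PBS knockdown cells and 774 ± 78.2 in PBS control cells (SD, n = 3 each), a log2 difference of -0.33 ± 0.11 (limma, adjusted p = 0.11). For Ccl7 the log2 difference was -0.25 ± 0.10 and for Ccl2 -0.24 ± 0.10 (limma, adjusted p = 0.18 and 0.23), with Ccl2 at -0.14 without the 3 far libraries. Knockdown libraries were all below control libraries for 4 genes, Ccl7, Ccl9, Cxcl1 and Cxcl2, against 11.9% of all genes, and all above for 0, against 10.1%. Without the 3 far libraries Cxcl1 passed (-0.33, limma, adjusted p = 0.031), and without PBS knockdown replicate 3 Ccl6 passed (-1.10, limma, adjusted p = 0.021). Over the 23 settings the adjusted p in PBS ran 0.031 to 0.30 for Cxcl1 and 0.021 to 0.98 for Ccl6. The median log2 difference of the 10 genes was -0.013 in PE and -0.24 in PBS, against 0.013 in PE and 0.0013 in PBS over all genes.

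**Figure D4:**
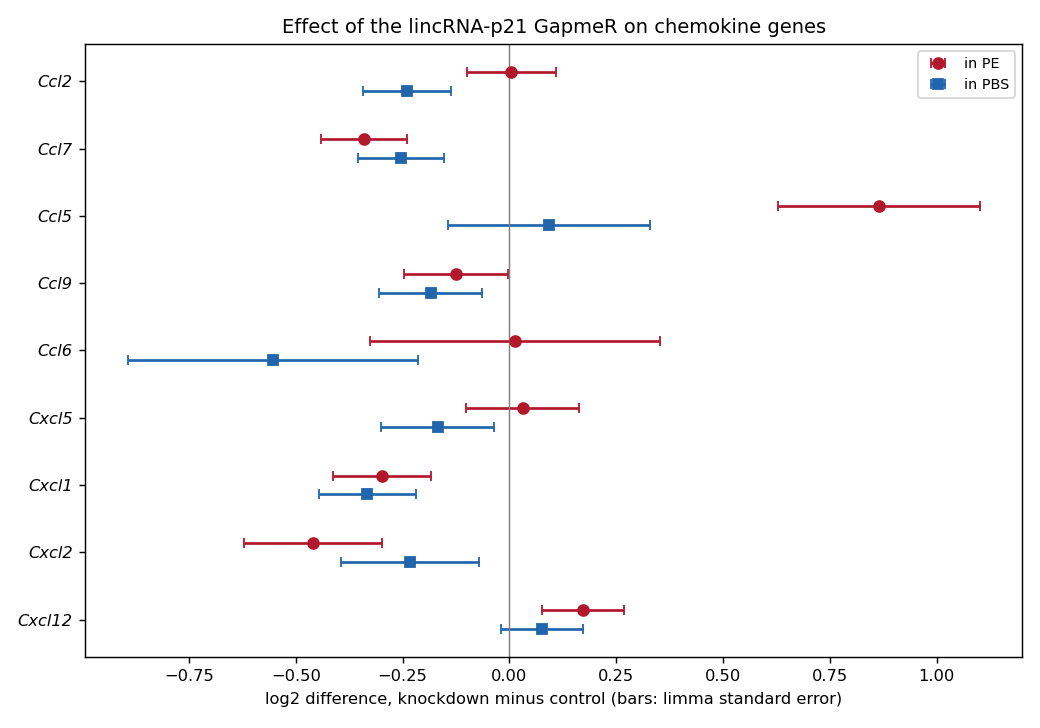
The log2 difference of knockdown minus control (x axis) for 9 chemokine genes in PE (circles) and in PBS (squares), with bars for the limma standard error. Ccl11 is left out for its few reads. Ccl5 lies at 0.86 in PE and 0.09 in PBS (0.89 and 0.48 without the 3 far libraries), while Ccl7, Cxcl1 and Cxcl2 lie below 0 in both.

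Whether PE acted differently with the 2 GapmeRs was asked by the interaction, whose control arm was known when the genes were picked. By limma, edgeR and DESeq2 it called 0 of the 10 genes. Over all 21799 genes limma called 0.055% in either direction. On the same genes edgeR with the deposited factors called 13 higher and 0 lower, and DESeq2 62 higher and 62 lower. At an unadjusted p under 0.05 in limma there was 1 of the 10 genes, Ccl5, with an interaction of 0.77 ± 0.33 on the log2 scale (limma, adjusted p = 0.46). Without the 3 far libraries it was 0.41 ± 0.32 (limma, adjusted p = 0.67), and over the 22 settings run it lay between 0.41 and 0.94. The other 9 lay between -0.23 (Cxcl2) and 0.57 (Ccl6), with standard errors of 0.14 to 1.01, and without the 3 far libraries Cxcl2 was at -0.41 and Ccl6 at -0.09.

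Among the other chemokine ligands only Cxcl10 was called for the knockdown in PE. It averaged 551 in PE knockdown cells and 171 in PE control cells, a log2 difference of 1.68 ± 0.16 (limma, adjusted p = 5.0e-07), and its interaction was 1.37 ± 0.22 (limma, adjusted p = 0.020). For the knockdown in PBS 0 of the 17 were called. Rel, the NF-kB subunit c-Rel, fell by 0.88 on the log2 scale in PE and by 0.82 in PBS (limma, adjusted p = 9.4e-05 and 5.3e-04), and Chuk, a kinase of the NF-kB pathway, fell by 0.56 in PE (limma, adjusted p = 0.016). Of the 19 inducing cytokines and receptors 1 rose and 6 fell in PE, with the LPS receptor gene Tlr4 at -0.64 ± 0.14, the oncostatin M receptor gene Osmr at -0.62 ± 0.11 and Tnf at -0.51 ± 0.16 (limma, adjusted p = 0.0049, 9.7e-04 and 0.044). Zc3h12a, an RNase that degrades cytokine mRNA, differed by -0.61 ± 0.16 (limma, adjusted p = 0.014).

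Beside Ccl5, mast cell and eosinophil markers summed to 507 to 552 in PE knockdown, 142 to 213 in PE control, 137 to 166 in PBS knockdown and 65.5 to 83.8 in PBS control libraries. Mcpt4 made up nearly all of that sum, with means of 516 in PE knockdown cells and 163 in PE control cells, while Cpa3, another gene of that list, had at most 3.63 in any library. Of the 5 tested genes of that list, 1 was called higher and 0 lower for the knockdown in PE, with a median log2 difference of -0.014. For the knockdown in PBS 1 was called higher and 0 lower as well, while Ccl5 was not called there. Whether mast cells or eosinophils were present, or had a part in the Ccl5 value, was not tested. Macrophage markers gave 0 higher and 1 lower (Mertk, -0.84 ± 0.12, limma, adjusted p = 5.1e-05) for the knockdown in PE, and 1 higher (C1qc) and 1 lower (Mertk) in PBS. Endothelial markers gave 0 higher and 2 lower in PE, and fibroblast markers 0 higher and 2 lower. Smooth muscle and pericyte markers gave 0 higher and 2 lower in PE (Acta2 and Abcc9). In PE, all knockdown sums lay below all control sums for the smooth muscle and pericyte, cardiomyocyte, fibroblast, endothelial and epicardial lists. Macrophage sums overlapped in PE. In PBS, all knockdown sums lay below all control sums for the macrophage, cardiomyocyte, and smooth muscle and pericyte lists. Epicardial sums in PBS lay all above, and fibroblast and endothelial sums overlapped. The part of any of these cells in the lower chemokine values with knockdown, Ccl7 included, was not tested.

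The genes whose profile over the 12 libraries was most like that of a chemokine were found by Pearson correlation of log2 values among 11559 genes with a mean of at least 50, as a description. All 12 libraries enter each value, so the shared difference of PE and PBS is part of it. Ccl6 was most like Mmp13 (r = 0.994), Serpinb9b (0.991) and Mmp8 (0.9905). Ccl2 was most like Il1rn (0.9896), Plvap (0.989) and Zfp970 (0.988). Cxcl1 was most like Zbtb38 (0.995), Spry4 (0.993) and Cx3cl1 (0.992). Cxcl5 was most like Ipo5 (0.9896), Tfpi2 (0.989) and Csf3 (0.986). Cxcl12 was most like Robo4 (0.986), Krt80 (0.985) and Efhd2 (0.984).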

How the data were processed

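Polyadenylated RNA was sequenced as paired-end reads in 12 libraries, and, per the submitters' processing notes, reads were handled with STAR, SAMtools and featureCounts on GRCm38.p6. For versions, annotation release and strand use, a statement is not given in the sources used here. In the signal table that the authors deposited, each library's gene counts are scaled by a size factor of its own (0.921 to 1.11): dividing by each column's step gave whole numbers for 100% of values (tolerance 0.001). For 2 PE knockdown columns the step lies too close to 1 for a formal check of that recovery, and the count tests below also use those columns. Identifiers were matched without version to GENCODE M21 (52083 of 55416). The table has 0 columns of no sample.

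limma 3.58.1 (R 4.3.3) was fitted with 4 group means and a trended prior to log2(value + 1) of 21799 genes, two-sided, with Benjamini-Hochberg adjustment over all of them at 0.05. Fold changes are on that scale, which understates the change of low genes. Alternatives were pseudocount 0.1, other filters, edgeR 4.0.16 and DESeq2 1.42.0 on recovered counts, rescaled totals, the 6 libraries compared, a replicate block and libraries left out. The fit was also run on simulated data with changes set only in PE knockdown libraries and not in genes of low mean. That run does not bear on genes such as Ccl11. Named are the 10 chemokines, up to 4 called genes of each list and comparison, and the 3 genes most like Ccl6, Ccl2, Cxcl1, Cxcl5 and Cxcl12. Cxcl3, Ccl3, Ccl4, Ackr3, Ccr2, Cxcr2, Cxcr4, Art3, Retnlg and Cpa3 were named after their values were seen. Members and lists were chosen with earlier results of these data known. Protein sequences were not used here. The values of 1 called receptor are not reported here.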

Additional observations from a re-analysis of the deposited data

Results flagged for a closer look

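Cxcl10, which is not among the 10 chemokines described, was picked out because its response to PE differed between the GapmeRs by a test of that difference. It had 559, 626 and 468 normalised read counts in PE knockdown, 179, 158 and 175 in PE control, 72.5, 68.7 and 67.8 in PBS knockdown, and 49.3, 52.1 and 68.9 in PBS control libraries. The 3 PE knockdown libraries were the highest of the 12. The interaction was 1.37 ± 0.22 on the log2 scale (limma, adjusted p = 0.020). It was called in 17 of 22 settings run, with values of 1.23 to 1.48 and adjusted p of 5.7e-05 to 0.13. Reads of the 3.59% of its windows of 50 exonic bases that also occur in the overlapping gene Art3 may not have been told apart.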

How the results depend on the processing

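The rise of 9 chemokines and the fall of 0 with PE in knockdown cells held under all alternatives run, leave-one-out fits included, and the directions of those 9 in control cells did too. For the knockdown in PE, the count of chemokines called lower was 2 with edgeR on the deposited factors, 2 with edgeR on TMM factors and 2 with DESeq2 (Ccl7 and Cxcl2), 0 with rescaled totals, and 3 without the 3 far libraries, against 1 in the fit reported. Leaving out a library gave 0 to 1 called higher and 0 to 2 called lower. For the knockdown in PBS, 1 was called lower without the 3 far libraries and 0 to 1 in leave-one-out fits.

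Signs turned only for differences that were not called. For the knockdown in PE these were Ccl2 (-0.0076) and Ccl6 (-0.0049) with TMM factors, Ccl11 (0.0030) with rescaled totals, and Ccl2 (-0.015), Ccl11 (0.30) and Ccl6 (-0.056) without the 3 far libraries. Leave-one-out ranges were -0.041 to 0.062 for Ccl2, -0.69 to 0.66 for Ccl11, -0.10 to 0.12 for Ccl6 and -0.071 to 0.19 for Cxcl5. For the knockdown in PBS, Ccl11 was 0.090 and Ccl6 0.031 without the 3 far libraries, and leave-one-out ranges were -0.077 to 0.36 for Ccl5 and -0.86 to 0.12 for Ccl11. For the interaction, Ccl11 was -7.3e-05 with DESeq2, and Cxcl1 -0.071, Ccl9 -0.12 and Ccl6 -0.087 without the 3 far libraries. Leave-one-out ranges there were -0.070 to 0.12 for Cxcl1, -0.0020 to 0.15 for Ccl9 and -0.39 to 0.97 for Ccl11. The cause was not tested.

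Rescaling to the same total moved the median log2 difference of genes with a mean of at least 50 by PE in knockdown cells to -0.15, against -0.0037, and the share of calls that were lower to 69.2%, against 51.1%. For the knockdown that share was 42.3% against 60.9% in PE, and 51.0% against 70.2% in PBS. With the replicate block, 9 chemokines were called higher with PE in knockdown cells, 1 higher and 1 lower for the knockdown in PE, and 0 for the knockdown in PBS and the interaction, so it changed no count. Libraries of the same number were not taken as pairs: over 18 pairs their residuals correlated at -0.087 to 0.045 across genes with a mean of at least 1, and at -0.44 to 0.41 across genes with a mean of at least 50, a second filter added after the first result was seen. Of these 18 pairs, 0 passed 0.1 with the first filter and 4 with the second. Among 36 pairs of different number, 1 and 15 passed it. Depth limits Ccl11, and the PBS level of Ccl6.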
